A study of Mus musculus with 4 samples.

Results

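The genes of the extracellular matrix scaffold and of its turnover were followed in 2 doxycycline-regulated mouse mammary tumor cell lines. They were the collagens, the laminins, the matrix metalloproteinases (MMPs) and the tissue inhibitors of metalloproteinases (TIMPs), chosen by gene symbol (Col, Lama, Lamb, Lamc, Mmp or Timp with their chain or member numbers). The array annotation gave 74 such genes of 18193 genes in all, with 42 collagens, 10 laminin chains, 18 MMPs and 4 TIMPs. Each gene was read from its probe set, a group of short probes against 1 transcript, that was brightest on average across the 4 arrays, and only probe sets with a single gene symbol were used. Col6a6, Col28a1, Mmp15, Mmp21, Mmp25, Mmp27 and Mmp28 had no such probe set and were not analysed here.

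Collagens are trimers that form fibrils, networks or filaments outside the cell, and laminins are trimers of an alpha, a beta and a gamma chain that organize the basement membrane on which mammary epithelium rests. MMPs cleave both, are made as inactive precursors, and are held in check by the TIMPs. In the mammary gland this matrix is made by both epithelium and stroma, and doxycycline is itself known as an inhibitor of MMP enzyme activity, which an RNA measurement does not read.

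Lines 8534 and 8542 were each derived from a primary mammary tumor of a female mouse (strain FVB/N;B6) that carried the transgenes MMTV-tTA and TOP-ICN1. The tetracycline transactivator, driven by the mammary tumor virus promoter, turns on human ICN1, the active intracellular part of NOTCH1. Cells of each line were treated with 2 µg/ml doxycycline for 24 hours, which turns ICN1 off, or were left untreated with ICN1 on, and total RNA of each line and condition was hybridized to 1 array (n = 2 lines). All 4 arrays came from cells with both transgenes, so that loss of ICN1 and any other effect of doxycycline cannot be told apart. The tumors had been digested with collagenase, and the cells were first plated on collagen-coated and later on standard plastic.

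Hey1, a target of NOTCH used here to check the labels, read 96.4 units with doxycycline and 1138 units untreated in line 8534, and 101 units with doxycycline and 762 units untreated in line 8542. The deposited values were log2 MAS5 signals, given below as signals in array units, and the median signal of the 4 arrays lay between 29.1 and 30.5 units. No detection calls were used, and the 20th percentile of all values, 5.52 units, served as a floor under which signals have no reliable order. Of the 74 genes, 15 had at least 1 array under this floor and 3 had all 4. The luminal markers Krt8 and Epcam read 7165 and 3003 units with doxycycline, and 4858 and 2837 units untreated, in line 8534, and 4537 and 1792 units with doxycycline, and 3467 and 1663 units untreated, in line 8542. Of 8 luminal markers tested, 3 rose (37.5%, beside 4.76% of all genes tested), which were Krt8, Krt18 and Cldn3. The 2 that fell (25%, beside 6.95% of all genes tested) were Elf5 and Krt19. Elf5 fell by 5.06-fold in 8534 cells and by 3.19-fold in 8542 cells (limma adjusted p = 0.00116). Krt19 fell by 1.76-fold and 1.90-fold (limma adjusted p = 0.00302). The part of these markers in the changes of the matrix genes was not tested. Ptprc, which marks leukocytes, read between 6.08 and 7.20 units. The sum of 6 leukocyte markers lay between 174 and 229 units, most of it from Csf1r (102 to 123 units) and Cd68 (34.6 to 67.9 units). None of the 4 leukocyte markers tested was called (beside 4.76% higher and 6.95% lower of all genes tested).

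The first comparison asked which matrix genes changed when ICN1 was turned off. The type VI collagen genes Col6a1 and Col6a2, Col23a1, Col26a1, the laminin chain Lama4 and the type IV collagen gene Col4a1 fell in both lines, by 1.47-fold to 12.1-fold, whereas Timp2 and Col12a1 rose. These 8 calls came from limma with cell line as a block, in which a gene was called at a Benjamini-Hochberg adjusted p under 0.05. Of the 74 genes, 66 had a mean log2 value at or above the 25th percentile of all probe sets, the filter used here, and were tested. The 6 genes called lower were 9.09% of the 66, against 6.95% of all 15070 genes tested, and the 2 called higher were 3.03%, against 4.76% of all genes tested. The remaining 58 were not called, 8 of them with an unadjusted p under 0.05. The median log2 change of the 66 genes was 0.09 in line 8534 and -0.04 in line 8542, beside 0.01 and 0.00014 for all genes tested, so that the family as a whole lay close to the array's own centre.

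The study's own criterion, over 2-fold in each of the lines, was applied to all 74 genes. It took 6 of 74 genes as lower (8.11%, against 4.42% of 18193 genes), which were Col6a1, Col6a2, Col23a1, Col26a1, Lama4 and Col9a2. It took 1 gene as higher (1.35%, against 3.09% of 18193 genes), Col17a1, whose 4 signals all lay under the floor, between 0.332 and 1.62 units. Col9a2, a chain of the fibril-associated type IX collagen, read 2.59 units with doxycycline and 28.7 units untreated in line 8534, but 0.628 units with doxycycline and 1.49 units untreated in line 8542, so that only the untreated 8534 array stood above the floor. Among the tested genes, 44 of 66 changed in the same direction in both lines (66.7%, beside 67.6% of all genes tested). With 2 lines an exact test for a single gene cannot go below p = 0.5, so that the calls rest on the spread pooled over all probe sets, with 1 residual degree of freedom. Without the intensity trend in that pooling none of the 8 genes was called, nor was any probe set of the array (lowest limma adjusted p = 0.223). In that setting 7 matrix genes lower and 4 higher had an unadjusted p under 0.05. Without the cell line block Col26a1 alone of the matrix genes was called, among 92 probe sets called on the array, with 6 matrix genes lower and 2 higher at an unadjusted p under 0.05. The share of all genes at that unadjusted threshold was not counted, so that these counts cannot be set against the array.

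**Figure D1:**
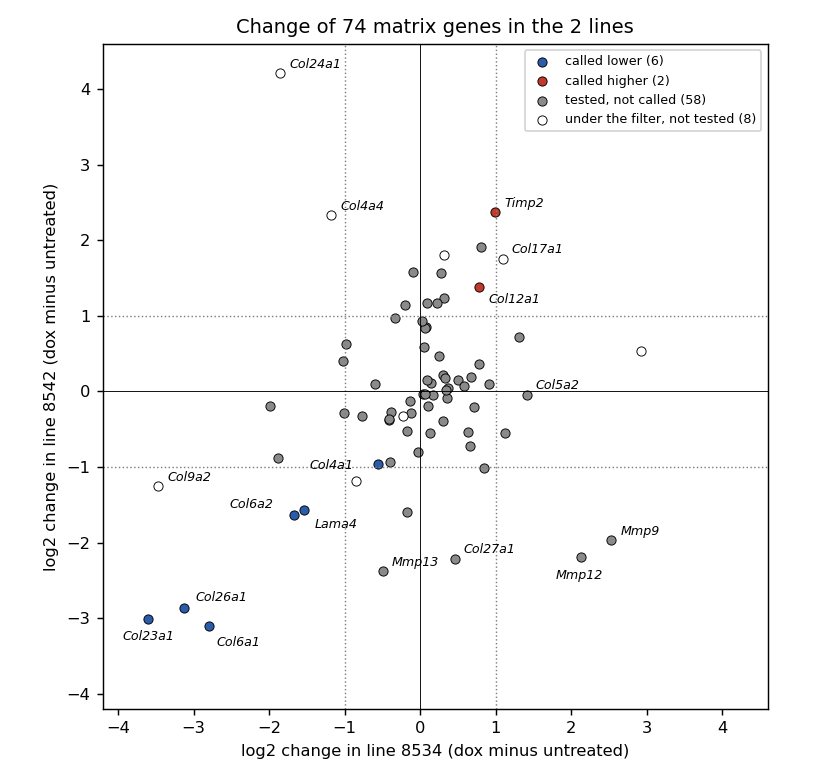
Log2 change of the 74 matrix genes in line 8534 (x axis) and in line 8542 (y axis), doxycycline minus untreated, 1 point per gene and colored by the limma call, with dotted lines at 2-fold. The 6 genes called lower lie to the lower left and the 2 called higher to the upper right, whereas Mmp9 and Mmp12 lie at the lower right, higher with doxycycline in line 8534 and lower in line 8542.

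Type VI collagen forms beaded filaments beside basement membranes, and its Col6a1 and Col6a2 chains fell while the chain Col6a3 showed no call. Col6a1 read 79.8 units with doxycycline and 552 units untreated in line 8534, and 47.6 units with doxycycline and 411 units untreated in line 8542. The treated signals of both lines lay well under the untreated ones, by 6.92-fold in line 8534 and by 8.62-fold in line 8542, a mean log2 change of -2.95 ± 0.22 (SD, n = 2 lines; SE 0.17; limma adjusted p = 0.000292). Col6a2 read 150.1 units with doxycycline and 476 units untreated in line 8534, and 147 units with doxycycline and 457 units untreated in line 8542. The lines were nearly alike, 3.17-fold and 3.11-fold lower (mean log2 change -1.65 ± 0.02, SE 0.14, adjusted p = 0.0011). This probe set is of a kind whose probes may also match other transcripts. The other probe set of Col6a2 fell further, by 2.30 in line 8534 and by 2.52 in line 8542 on the log2 scale (adjusted p = 0.000486). Col6a3 read 149 units with doxycycline and 117 units untreated in line 8534, and 32.8 units with doxycycline and 34.8 units untreated in line 8542 (mean log2 change 0.13, adjusted p = 0.803). Its signals, described after its values were seen, overlapped between the conditions.

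Col6a1 and Col6a2 are neighbors, with 0 protein-coding genes between them in the RefSeq gene table of GRCm38.p6. Their promoters are shown beside that of Timp2, which rose, as those of the called genes whose promoter window was available and overlaps no annotated gene. Each window holds the 250 bases before the RefSeq start, 5′ to 3′ on the gene's strand, and all 3 genes lie on the minus strand, at chr10:76726045-76726294, chr10:76623631-76623880 and chr11:118355412-118355661. The windows overlap no annotated gene, and the capitals mark a motif match, the AP-1 motif TGANTCA in Col6a1 and the GC box GGGCGG, read on either strand, in the others.
Col6a1 promoter: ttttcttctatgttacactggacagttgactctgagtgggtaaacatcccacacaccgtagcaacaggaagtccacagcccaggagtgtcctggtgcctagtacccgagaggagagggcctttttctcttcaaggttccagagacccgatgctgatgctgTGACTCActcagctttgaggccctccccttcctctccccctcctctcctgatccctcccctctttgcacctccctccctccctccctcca
Col6a2 promoter: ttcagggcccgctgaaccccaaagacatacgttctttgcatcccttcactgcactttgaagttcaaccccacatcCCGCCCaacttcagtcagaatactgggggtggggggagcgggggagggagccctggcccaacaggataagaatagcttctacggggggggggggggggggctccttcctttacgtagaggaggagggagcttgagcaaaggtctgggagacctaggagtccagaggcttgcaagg
Timp2 promoter: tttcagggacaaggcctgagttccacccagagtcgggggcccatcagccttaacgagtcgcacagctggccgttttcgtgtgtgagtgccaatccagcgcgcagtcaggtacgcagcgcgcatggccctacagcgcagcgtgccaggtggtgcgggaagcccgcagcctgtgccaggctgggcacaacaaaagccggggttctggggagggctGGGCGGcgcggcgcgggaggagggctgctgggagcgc

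The AP-1 match starts 90 bases before the start of Col6a1, and the GC box lies 175 bases before that of Col6a2 and 37 bases before that of Timp2. The RBPJ core TGGGAA, the sequence bound by the DNA partner of ICN1, and the E-box CACGTG were also searched on both strands, and none of the 3 windows held either. Among the 55 of 74 matrix genes with a promoter in the table, 13 held the RBPJ core (23.6%, beside 21.5% of 27025 promoters) and 8 the AP-1 motif (14.5%, beside 6.85%). The GC box was in 28 (50.9%, beside 33.0%), and the E-box in 0 (beside 6.04%). These are matches of letters in a short window and were not tested against the expression changes. The table held no promoter for Lama4, Col26a1 and Col12a1.

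**Figure D2:**
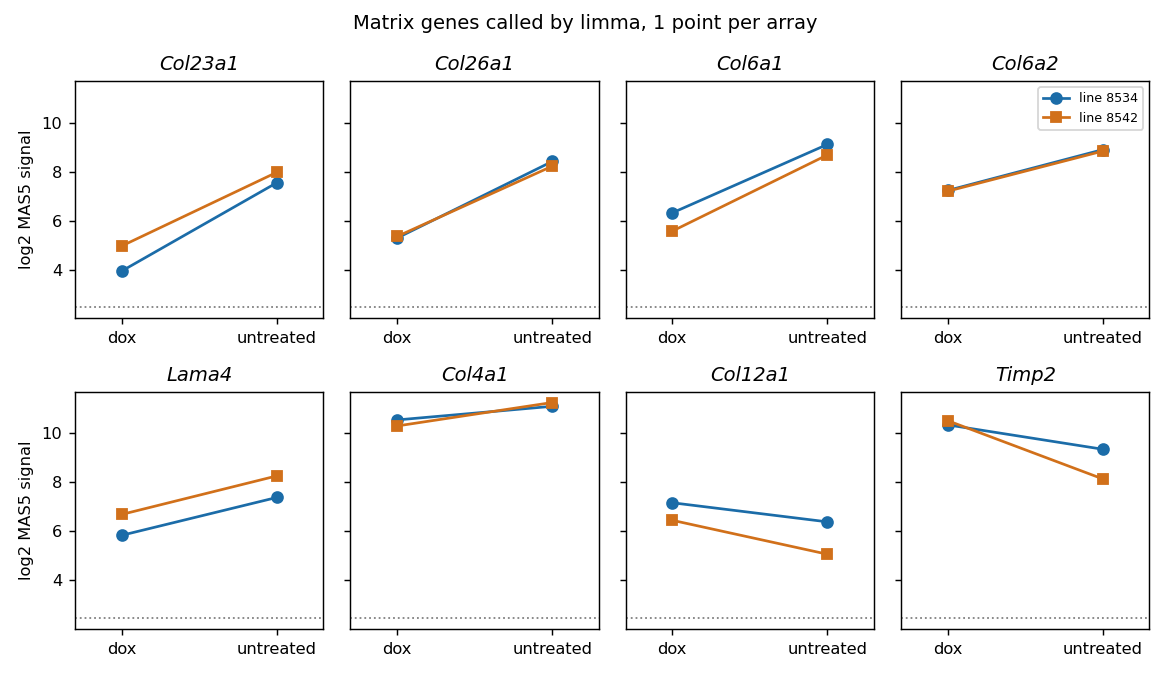
Log2 MAS5 signal of the 8 called genes, 1 panel per gene, with the doxycycline array left of the untreated array and a line joining the 2 arrays of each cell line, over the floor (dotted). In every panel both lines slope the same way, downward toward doxycycline for Col23a1, Col26a1, Col6a1, Col6a2, Lama4 and Col4a1, and upward for Col12a1 and Timp2.

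Col23a1, a collagen anchored in the cell membrane, fell furthest of the called genes. It read 15.4 units with doxycycline and 187 units untreated in line 8534, and 31.3 units with doxycycline and 251 units untreated in line 8542. The conditions did not overlap, with signals 12.1-fold and 8.03-fold lower (mean log2 change -3.30 ± 0.42, SE 0.24, adjusted p = 0.000582). Both other probe sets of Col23a1 were called lower too, 1 of them at 4.40 and 4.73 units in the treated cells, under the floor, against 227 and 237 units in the untreated cells. Of the other transmembrane collagens, Col25a1 and Col13a1 were tested and not called, and Col17a1 lay under the filter.

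Col26a1, a small collagen first described in reproductive tissue, read 39.1 units with doxycycline and 341 units untreated in line 8534, and 40.9 units with doxycycline and 298 units untreated in line 8542. The 2 treated arrays were close to each other and far under the untreated ones, 8.71-fold and 7.28-fold lower (mean log2 change -2.99 ± 0.18, SE 0.19, adjusted p = 0.000355). A second probe set of Col26a1, between 6.37 and 17.4 units, changed by -1.03 in line 8534 and -0.03 in line 8542 and was not called (adjusted p = 0.764).

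The basement membrane chains did not move as a block. Col4a1, which with Col4a2 builds the common network of every basement membrane, read 1489.9 units with doxycycline and 2189 units untreated in line 8534, and 1256 units with doxycycline and 2437 units untreated in line 8542. It was 1.47-fold and 1.94-fold lower, a mean log2 change of -0.76 ± 0.28 (SE 0.13, adjusted p = 0.0126), and its second probe set was called lower as well (adjusted p = 0.0355). Col4a2 read 636 units with doxycycline and 720.1 units untreated in line 8534, and 484 units with doxycycline and 697 units untreated in line 8542. Both treated signals lay under both untreated ones, but the change of -0.35 on the log2 scale did not pass (adjusted p = 0.179, unadjusted p = 0.0351). The starts of the 2 genes lie 21 bases apart on opposite strands in GRCm38.p6. The Col4a5 chain, named after its values were seen, read higher with doxycycline, at 146 units against 117 units untreated in line 8534 and at 468 units against 199 units untreated in line 8542 (adjusted p = 0.0886).

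Among the laminins, 1 of 8 chains tested was called (12.5% lower, beside 6.95% of all genes tested). This was Lama4, the alpha chain known mainly from vessels, muscle and fat. It read 57.3 units with doxycycline and 167 units untreated in line 8534, and 103 units with doxycycline and 307 units untreated in line 8542. The fall was nearly the same in each line, 2.92-fold and 2.97-fold (mean log2 change -1.56 ± 0.02, SE 0.17, adjusted p = 0.00235), while its second probe set was lower in both lines without a call (adjusted p = 0.123). The chains Lama3 and Lamb3, which are known from epithelial basement membranes, were not called. Lama3 read 30.7 units with doxycycline and 28.7 units untreated in line 8534, and 30.7 units with doxycycline and 35.0 units untreated in line 8542. Lamb3 read 21.5 units with doxycycline and 9.86 units untreated in line 8534, and 8.55 units with doxycycline and 12.5 units untreated in line 8542. In both genes the 2 lines moved in opposite directions. The 7 laminin chains not called had mean log2 changes between -0.41 and 0.36, the lowest adjusted p being 0.249, and Lama1 and Lama2 lay under the filter. Another probe set of Lama5, an alpha chain of epithelial basement membranes, was however called higher, at 300.4 units with doxycycline and 177 units untreated in line 8534, and 285 units with doxycycline and 167 units untreated in line 8542 (1.70-fold in each line, adjusted p = 0.0206). The probe set that stood for Lama5 read 617 units with doxycycline and 491 units untreated in line 8534, and 498 units with doxycycline and 439 units untreated in line 8542 (adjusted p = 0.299).

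Timp2, which inhibits MMPs and also takes part in the activation of the MMP2 precursor by MMP14, rose in both lines. It read 1297 units with doxycycline and 651 units untreated in line 8534, and 1462 units with doxycycline and 282 units untreated in line 8542. All treated signals lay above all untreated ones, 1.99-fold and 5.19-fold higher, a mean log2 change of 1.68 ± 0.98 (SE 0.28, adjusted p = 0.012). The treated lines were thus closer to each other than the untreated lines. Of the 5 other probe sets of Timp2, 4 were called higher (adjusted p between 0.00369 and 0.0129), and the other one, between 2.95 and 8.71 units, read lower and lay under the filter. Averaged over its probe sets, Timp2 missed the threshold (adjusted p = 0.0521).

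The other TIMPs were not called. Timp1 read 809 units with doxycycline and 429 units untreated in line 8534, and 27.1 units with doxycycline and 25.4 units untreated in line 8542 (adjusted p = 0.258). Its difference between the lines exceeded its change with doxycycline. Timp3, the TIMP that binds to the matrix, read 1468 units with doxycycline and 1163 units untreated in line 8534, and 1252 units with doxycycline and 1231 units untreated in line 8542 (adjusted p = 0.456). Timp4 read 27.6 units with doxycycline and 31.7 units untreated in line 8534, and 27.8 units with doxycycline and 12.6 units untreated in line 8542 (adjusted p = 0.61).

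Col12a1, a fibril-associated collagen that bridges fibrils in tissue under load, was the other gene that rose. It read 144 units with doxycycline and 83.7 units untreated in line 8534, and 87.6 units with doxycycline and 33.6 units untreated in line 8542. The treated array of line 8542 was only just above the untreated array of line 8534, so that the change shows mainly within each line, as 1.72-fold and 2.61-fold (mean log2 change 1.08 ± 0.43, SE 0.23, adjusted p = 0.0317). A second probe set was called higher (adjusted p = 0.0198), and the others, at low signals, were not. The call was lost when the probe sets of the gene were averaged (adjusted p = 0.405) and without the filter on low signals (adjusted p = 0.0591). The other 7 fibril-associated collagens tested had mean log2 changes between -1.38 and 0.70 and were not called.

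None of the 17 MMPs tested was called by limma, with 1 of them, Mmp13, at an unadjusted p under 0.05 and the lowest adjusted p at 0.169. Of all genes tested, 4.76% were called higher and 6.95% lower, so that the absence of a call among 17 says little about the MMPs. Their mean log2 changes ran between -1.44 and 0.63. Mmp14, the membrane-type enzyme that activates MMP2, read 649 units with doxycycline and 502 units untreated in line 8534, and 797 units with doxycycline and 770.1 units untreated in line 8542 (adjusted p = 0.418). The gelatinase Mmp2 read 81.6 units with doxycycline and 49.9 units untreated in line 8534, and 40.5 units with doxycycline and 46.5 units untreated in line 8542 (adjusted p = 0.686). Mmp13, a collagenase, read 40.8 units with doxycycline and 57.4 units untreated in line 8534, and 3.69 units with doxycycline and 19.2 units untreated in line 8542, the first of these 8542 values under the floor. It was lower in both lines, by unequal steps of 0.49 and 2.38 on the log2 scale.

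The gelatinase Mmp9 and the macrophage elastase Mmp12 moved in opposite directions in the 2 lines. Mmp9 read 46.6 units with doxycycline and 8.06 units untreated in line 8534, and 6.87 units with doxycycline and 26.9 units untreated in line 8542. Mmp12 read 46.1 units with doxycycline and 10.5 units untreated in line 8534, and 2.72 units with doxycycline and 12.4 units untreated in line 8542. Both were thus over 2-fold higher with doxycycline in one line and over 2-fold lower in the other, as were Col24a1 and Col4a4 the other way round, partly or wholly under the floor. Opposite changes of over 2-fold were seen in 4 of 74 matrix genes (5.41%, against 2.47% of 18193 genes). The second probe set of Mmp9, at 1.44 to 4.80 units on every array, lay under the floor. In all, 10 MMP genes form an unbroken run on chromosome 9 in the RefSeq table. Of the 8 among them that were tested, Mmp9 not being one, 0 were called (beside 4.76% higher and 6.95% lower of all genes tested).

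The fibrillar collagens, the main load-bearing collagens of stroma, showed no call among 10 tested (beside 4.76% higher and 6.95% lower of all genes tested). Of the 10, 2 had an unadjusted p under 0.05, and the lowest adjusted p was 0.175. Their mean log2 changes ran between -0.88 and 0.92. Their median change was 0.47 in line 8534 and 0.02 in line 8542. Col5a2, a minor chain that sets fibril diameter, read 844 units with doxycycline and 317 units untreated in line 8534, and 14.4 units with doxycycline and 14.9 units untreated in line 8542 (adjusted p = 0.289). Col11a1, of the related type XI collagen, read 25.5 units with doxycycline and 21.1 units untreated in line 8534, and 147 units with doxycycline and 49.7 units untreated in line 8542 (adjusted p = 0.175). Each of these genes moved mainly in the line in which its signal was the higher, and whether the lines differ in their response could not be tested with 1 array per line and condition. Both were named after their values were seen.

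**Figure D3:**
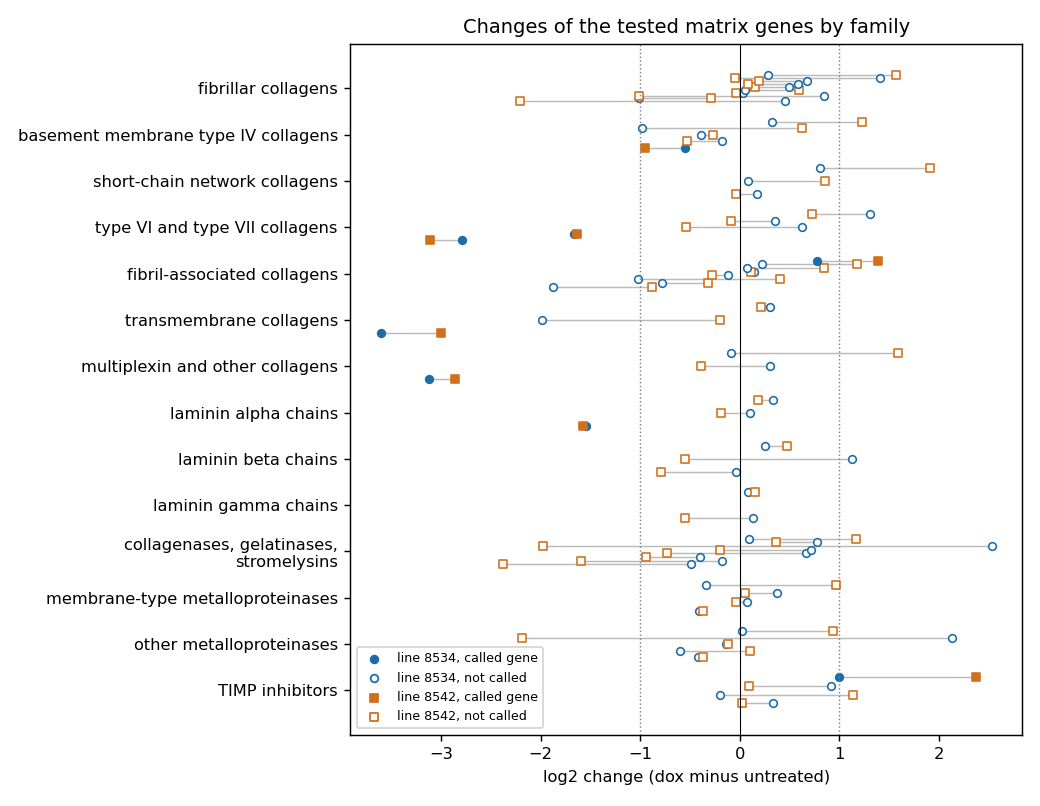
Log2 change, doxycycline minus untreated, of the 66 tested matrix genes by family, with circles for line 8534, squares for line 8542, a grey bar joining the 2 lines of 1 gene, and filled symbols for genes called by limma. The filled pairs lie below 0 for Col6a1, Col6a2, Col23a1, Col26a1, Lama4 and Col4a1, and above 0 for Col12a1 and Timp2, with Col4a1 and Col12a1 inside the spread of collagens that were not called, and the long bars among the MMPs belong to Mmp9 and Mmp12.

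The lines themselves differed in their matrix genes, whatever the treatment. Of the 66 tested genes, 12 were over 2-fold higher in line 8534 than in line 8542 in both conditions (18.2%, against 2.95% of 15070 genes), and 2 were over 2-fold lower (3.03%, against 1.41% of 15070 genes). The 12 genes were the fibrillar chains Col1a1, Col1a2, Col3a1 and Col5a2, the collagens Col6a3, Col8a1, Col15a1 and Col18a1, the enzymes Mmp7, Mmp10 and Mmp13, and Timp1, all named after their values were seen. The 2 genes lower in line 8534 were Col11a1 and Col20a1. The filter used the mean over all arrays, so that a high signal in 1 line alone could bring a gene into the tested set. Col8a1, for example, had log2 values of 1.91 with doxycycline and 1.95 untreated in line 8542, under the cutoff of 2.94. The same filter was applied to the 15070 genes. Both shares therefore depend in part on the difference that they count. With 1 array per line and condition the line differences are differences between 2 cultures, given without a test.

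Col1a1, the alpha 1 chain of type I collagen, read 271 units in line 8534 and 17.2 units in line 8542 with doxycycline, and untreated 151 units in line 8534 and 34.7 units in line 8542. Col3a1, of the type III collagen that accompanies it, read 226 units in line 8534 and 16.6 units in line 8542 with doxycycline, and untreated 151 units in line 8534 and 15.7 units in line 8542. Col5a2 was 58.5-fold higher in line 8534 than in line 8542 with doxycycline and 21.3-fold higher untreated. Col3a1 and Col5a2 are neighbors with 0 protein-coding genes between them. Timp1 was 29.8-fold higher in line 8534 with doxycycline and 16.9-fold higher untreated, and Col8a1 stood at 98.3 and 87.4 units in line 8534 while it lay under the floor in line 8542. The sum of 9 basal markers was also higher in line 8534, at 9917 and 6186 units in treated and untreated 8534 cells, and 371 and 287 units in treated and untreated 8542 cells. Acta2, Krt17 and Krt14 carried this sum, whereas Krt5 with doxycycline (28.9 units in line 8534 and 33.6 units in line 8542) and Trp63 untreated (7.53 and 8.85 units) were not higher in line 8534, and Oxtr and Myh11 differed little. Among fibroblast markers Pdgfrb read 165 units in line 8534 and 12.2 units in line 8542 with doxycycline, and untreated 210 units in line 8534 and 6.96 units in line 8542. Thy1 and Fbln2 were higher in line 8534 as well, but Pdgfra and Lum were lower there in both conditions, and Fap, Fbln1 and Dcn with doxycycline differed little. The part of these markers in the matrix differences was not tested, and in such cultures more cells of a type and more RNA per cell cannot be told apart.

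**Figure D4:**
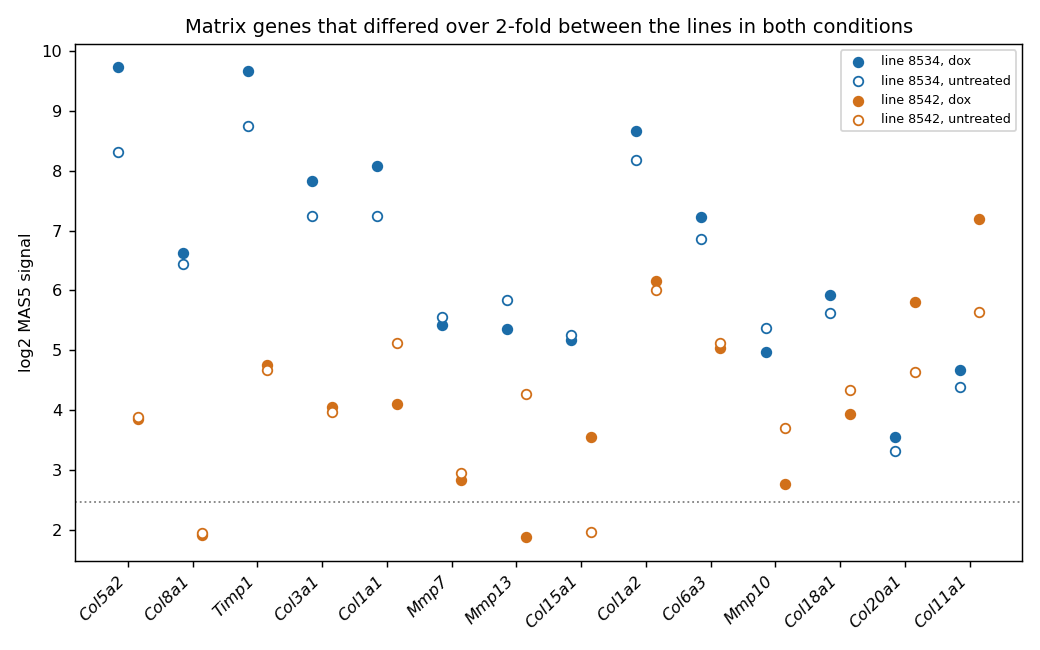
Log2 MAS5 signal of the 14 tested matrix genes that differed by over 2-fold between the lines in both conditions, with line 8534 (blue) left of line 8542 (orange), filled circles for doxycycline, open circles for untreated cells and the floor dotted. In 12 genes both 8534 arrays lie above both 8542 arrays, and Col20a1 and Col11a1, at the right, show the reverse.

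The partners of these genes were counted next, from lists drawn up for the pathway with earlier results of these data known. The shares called in these lists are therefore descriptions and test nothing. Of 14 tested basement membrane partners and laminin receptors, 5 rose and 0 fell (35.7% higher, beside 4.76% of all genes tested). Npnt, nephronectin, a basement membrane ligand of integrins, read 299 units with doxycycline and 63.5 units untreated in line 8534, and 115 units with doxycycline and 24.2 units untreated in line 8542. It was 4.71-fold and 4.76-fold higher (mean log2 change 2.24 ± 0.01, adjusted p = 0.00116). Itga3, the alpha chain of a laminin receptor, was higher in line 8534 by 4.79-fold and in line 8542 by 3.24-fold (adjusted p = 0.00111). Itgb4, the hemidesmosome integrin chain, rose 1.88-fold and 2.33-fold (adjusted p = 0.00722), and the laminin receptor dystroglycan, Dag1, rose 1.66-fold and 2.23-fold (adjusted p = 0.00638). The other one was the integrin chain Itgb1, 1.65-fold and 1.60-fold higher. The other 9 genes of this list were not called, with mean log2 changes between -0.998 and 0.486.

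Among 15 tested activators and inhibitors of metalloproteinases and related proteases, 4 rose (26.7%, beside 4.76% of all genes tested) and 1 fell (6.67%, beside 6.95%). The aggrecanases Adamts1 and Adamts4 rose, Adamts1 by 3.58-fold in line 8534 and 2.74-fold in line 8542 (adjusted p = 0.00197), and Adamts4 by 2.72-fold and 2.78-fold (adjusted p = 0.00467). Adamts9, a related protease, was lower, at 55.0 units with doxycycline against 158 units untreated in line 8534 and at 27.9 units against 54.1 units untreated in line 8542 (adjusted p = 0.0241). The urokinase receptor Plaur rose 2.87-fold and 1.57-fold (adjusted p = 0.0414). Furin, which cleaves the precursors of membrane-type MMPs, was the other gene that rose, by 1.56-fold and 1.69-fold. Of 21 tested collagen modification and cross-linking enzymes, 2 rose (9.52%, beside 4.76% of all genes tested) and 0 fell (beside 6.95%). These were the prolyl hydroxylase subunit P4ha2, 1.97-fold and 2.52-fold higher (adjusted p = 0.0224), and the collagen galactosyltransferase Colgalt1, 1.66-fold higher in each line (adjusted p = 0.012).

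Fibroblast markers were set beside these changes because stroma is a main source of collagens. Their summed signal over 9 genes was 3344 units with doxycycline and 892 units untreated in line 8534, and 2268 units with doxycycline and 400 units untreated in line 8542. Periostin (Postn), a matrix protein, made up most of it, at 2880.5 and 2092 units with doxycycline and 409 and 264 units untreated in lines 8534 and 8542. Postn was the 1 marker of 9 that was called (11.1% higher, beside 4.76% of all genes tested). Without Postn the sums were 463 and 483 units in treated and untreated 8534 cells, and 177 and 136 units in treated and untreated 8542 cells. Pdgfra, a defining fibroblast marker, read 3.63 units with doxycycline and 21.0 units untreated in line 8534, and 9.74 units with doxycycline and 23.6 units untreated in line 8542. The first of these values lay under the floor, and Pdgfra was not called (adjusted p = 0.139). Fap was lower in both lines as well, whereas Fbln2 and Lum were higher in both. The markers Pdgfrb, Dcn, Fbln1 and Thy1 moved in opposite directions in the lines. The sum of 5 endothelial markers was 134 and 270 units in treated and untreated 8534 cells, and 158 and 148 units in treated and untreated 8542 cells. The endothelial kinase receptor Tek was the 1 marker of 4 tested that was called, and it fell in both lines (25% lower, beside 6.95% of all genes tested). The other 3 tested, Cdh5, Kdr and Emcn, were not called. Tek read 18.3 units with doxycycline and 130 units untreated in line 8534, and 7.69 units with doxycycline and 20.03 units untreated in line 8542 (adjusted p = 0.0303). The endothelial marker Pecam1 read between 4.50 and 17.4 units, Cdh5 between 8.47 and 16.2 units and Emcn between 21.2 and 27.2 units. Kdr was lower with doxycycline in line 8534 (68.1 units against 103 units untreated) but higher in line 8542 (105 units against 74.1 units untreated). The part of other cell types in the changes of the matrix genes was not tested.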

How the data were processed

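RNA of 4 cultures was measured, 2 lines with and without doxycycline. The authors processed the arrays with MAS5 and deposited log2 values of the scaled signal for 45101 probe sets. Base 2 was inferred, as it gave trimmed means of 97.7 to 101.8 units. For MAS5, neither version nor scaling target is given in the sources used here. The methods name the smaller A version of the array, but the number of probe sets in the deposited values is that of the full version.

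Values were used as deposited, without 64 control probe sets. Limma 3.58.1 (R 4.3.3) was fitted with terms for line and treatment, and with an intensity trend, to 33778 probe sets whose mean log2 value reached the 25th percentile (2.94), with Benjamini-Hochberg adjustment over all of them and 6.18 prior degrees of freedom. Line served as the block because both arrays of a pair came from the same cell line. The differences between the lines correlated between conditions (r = 0.36 across tested probe sets). The model was tested on simulated data. Each p-value rests on the difference between the changes of the 2 lines and on the spread pooled over the probe sets tested. Spread between repeat cultures of a line was not measured, because each line and condition had 1 array. The p-values apply to these cultures only.

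The members and the gene lists were chosen with earlier results of these data known. Genes were named if called or past 2-fold in the same direction in both lines, with Col4a1, Col4a2, Lama3, Lamb3, the TIMPs, Mmp2, Mmp9, Mmp14 and up to 4 called genes of each list, and others are said to be named after their values were seen. The further members of a list with 5 or fewer calls were also named after their values were seen. Alternatives were other filters, a floor, a pseudocount, quantile normalization, median centring, no line block, no intensity trend, the mean of all probe sets, and leaving out each line.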

Additional observations from a re-analysis of the deposited data

Results flagged for a closer look

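In 14 matrix genes named in the text the 2 lines changed in opposite directions with doxycycline, and Col24a1, Col4a4 and Mmp12 were named for that reason. The lines changed in the same direction in 66.7% of the matrix genes tested and in 67.6% of all genes tested, so that the count is not particular to the matrix genes. The difference, the log2 change of line 8534 minus that of line 8542, was 4.50 for Mmp9, 4.32 for Mmp12, 1.67 for Lamb3, 0.91 for Mmp2 and 0.29 for Lama3, 1.85 for Col1a1, 1.46 for Col5a2, 0.70 for Col18a1, 0.44 for Col6a3 and 0.21 for Col8a1, and -1.68 for Col15a1, -1.34 for Timp4, -3.51 for Col4a4 and -6.07 for Col24a1. None of these differences was tested, because 4 arrays leave no degree of freedom for such a term. Signals of Col24a1 lay under the floor of 5.52 units on all 4 arrays, those of Col4a4 and Col8a1 on 2, and those of Mmp12 and Col15a1 on 1.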

How the results depend on the processing

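The 6 genes called lower stayed 6 under other filters, a floor, a pseudocount, quantile normalization, median centring and the mean of all probe sets. They became 1 (Col26a1) without the replicate block, that is without the pairing by line, and 0 without the intensity trend, where no probe set of the array was called. The 2 genes called higher became 1 without the filter and 0 without the replicate block, without the intensity trend and over the mean of all probe sets. The gene counted as over 2-fold higher in both lines became 0 with the floor or the pseudocount, and 2 with quantile normalization or the mean of all probe sets. With 1 line alone, past 2-fold, 7 to 13 genes were higher and 12 to 13 lower. These include genes under the floor, such as Col24a1, and the share of all genes past 2-fold in 1 line was not counted. The median change of all 74 genes, 0.0917, was -0.0408 in line 8542 alone and 0.0833 in line 8534 alone, and lay between 0.00482 and 0.113 in the other settings. Of the single genes, Col12a1 lost its call in 4 of 9 alternatives and Timp2 in 3 of 9, and none of the 8 called genes changed sign. Among genes not called, Mmp9 took the other sign over the mean of all probe sets (-0.04, against 0.28), and leaving out 1 line turned Mmp9, Lamb3, Mmp2, Timp4 and Lama3, whose lines moved in opposite directions. The cause of these changes was not tested. Low signals and n = 2 lines limit every ratio.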
